A study of Mus musculus with 29 samples.

Results

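The serine, folate and one-carbon enzymes are 9 genes, Phgdh, Psat1, Psph, Shmt1, Shmt2, Mthfd1, Mthfd2, Mthfd1l and Tyms, of 18193 genes measured on the arrays. They were taken by name: every probe set (a group of short probes read as 1 value) that the platform annotation assigns to 1 of these symbols alone was a member, which gave 25 probe sets of 45037, and the probe set of highest mean over all arrays stood for its gene. Another 3 probe sets that the annotation assigns to Phgdh or Tyms together with a related locus were left out by that rule and are described below. The samples were 24 primary abdominal neuroblastomas and 5 samples of total bone marrow from mice labelled as strain 129X1/SvJ, all carrying TH-MYCN, a transgene in which a tyrosine hydroxylase promoter drives MYCN in the sympathoadrenal lineage, so that neuroblastoma arises in that lineage. Tumours came from animals deficient in caspase-8 (17 samples) or with wild type caspase-8 (7 samples), and marrow likewise from deficient (3 samples) or wild type (2 samples) animals. The labels used here give neither the ages of the animals nor the cells in which caspase-8 was removed, and they do not say that each sample came from a separate animal, so a p-value here measures how these samples vary, part of which may be technical.

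Serine is made from an intermediate of glycolysis by Phgdh, Psat1 and Psph in turn. The hydroxymethyltransferases Shmt1, in the cytosol and nucleus, and Shmt2, mainly in mitochondria, then split serine into glycine and a carbon unit that is carried on tetrahydrofolate. Inside mitochondria Mthfd2 oxidises that unit and Mthfd1l releases it as formate. Mthfd1 loads formate back onto folate in the cytosol for purine synthesis, and Tyms uses a folate-bound carbon to turn dUMP into dTMP for DNA. Proliferating and MYC-driven cells are known for a high demand on these steps, and several of the genes are known targets of MYC family proteins and of ATF4, the transcription factor of the amino acid response.

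Arrays were on a common log2 scale, with array medians of 4.78 to 4.91. The tumours carried their lineage: the mean of 11 sympathoadrenal markers was 10.4 ± 0.17 in deficient tumours (SD, n = 17) and 10.4 ± 0.34 in wild type tumours (n = 7), against 4.23 ± 0.052 in deficient marrow (n = 3) and 4.15 ± 0.010 in wild type marrow (n = 2). Neutrophil markers (9 genes) ran the other way, at 4.24 and 4.11 in deficient and wild type tumours and 12.4 and 12.3 in deficient and wild type marrow. Sample titles are numbered in a lower series (10 tumours, 7 of them deficient) and a higher series (14 tumours, 10 of them deficient, and all marrow), whose meaning the labels do not give. Between these series 1438 genes differed over the tumours in limma, and none of the 9 enzymes did, with adjusted p-values of 0.719 and above. Casp8, the gene of the genotype label, averaged 5.62 ± 0.44 in deficient tumours and 5.88 ± 0.57 in wild type tumours, a log2 difference of -0.26 (SE 0.20) that was not called, and the labels do not say whether its probe set lies in the deleted part. It averaged 9.14 ± 0.12 in deficient and 9.46 ± 0.23 in wild type marrow, a difference of -0.32 (SE 0.19) that was not called either. Casp8 was thus 11.7-fold lower in tumours than in marrow. In bulk RNA of this kind, fewer cells of a type and less RNA per cell cannot be told apart.

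The promoter windows of 4 of the enzymes are shown first because these 4 form pairs of related steps whose tissue differences had opposite signs: Phgdh was lower and Psat1 higher in tumours than in marrow, although they act one after the other in serine synthesis, and Shmt2 was lower and Shmt1 higher, although both carry out the same reaction. The Shmt2 difference (-0.52) lost its call when single marrow samples were left out, and another Shmt1 probe set differed by only 0.20, as described below. Each window holds 300 bases from RefSeq on build GRCm38.p6, 250 before the gene's start and 50 after it, read 5′ to 3′ along the gene. All 4 genes lie on the minus strand: Phgdh at chr3:98339920-98340219, Psat1 at chr19:15925010-15925309 (the first of its annotated starts), Shmt1 at chr11:60811216-60811515 and Shmt2 at chr10:127522395-127522694. Capitals mark a match to 1 of 4 motifs searched on both strands.
Phgdh: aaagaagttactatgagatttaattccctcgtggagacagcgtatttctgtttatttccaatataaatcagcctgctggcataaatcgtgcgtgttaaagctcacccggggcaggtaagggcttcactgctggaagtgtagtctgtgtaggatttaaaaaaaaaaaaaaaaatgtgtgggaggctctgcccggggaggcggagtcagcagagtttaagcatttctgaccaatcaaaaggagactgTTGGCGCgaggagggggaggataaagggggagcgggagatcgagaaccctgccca
Psat1: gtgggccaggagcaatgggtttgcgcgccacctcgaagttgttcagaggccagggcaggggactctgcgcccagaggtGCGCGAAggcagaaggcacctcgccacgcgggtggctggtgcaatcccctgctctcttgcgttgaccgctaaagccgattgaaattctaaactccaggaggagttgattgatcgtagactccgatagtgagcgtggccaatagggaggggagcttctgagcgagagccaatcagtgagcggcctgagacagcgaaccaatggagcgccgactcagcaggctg
Shmt1: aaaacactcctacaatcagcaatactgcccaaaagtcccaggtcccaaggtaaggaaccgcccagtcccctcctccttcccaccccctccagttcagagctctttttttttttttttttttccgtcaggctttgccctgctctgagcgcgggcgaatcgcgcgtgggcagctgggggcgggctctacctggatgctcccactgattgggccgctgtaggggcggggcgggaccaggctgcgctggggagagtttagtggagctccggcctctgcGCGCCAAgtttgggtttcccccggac
Shmt2: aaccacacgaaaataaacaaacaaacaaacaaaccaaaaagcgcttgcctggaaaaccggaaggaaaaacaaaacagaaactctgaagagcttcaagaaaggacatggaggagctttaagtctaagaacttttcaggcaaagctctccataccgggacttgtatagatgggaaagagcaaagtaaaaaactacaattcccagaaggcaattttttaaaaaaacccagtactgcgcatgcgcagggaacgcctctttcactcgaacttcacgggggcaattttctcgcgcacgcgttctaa
The motifs were the E-box CACGTG bound by MYC family proteins, TGATGNAA (a core bound by ATF4 with its partners), and the E2F forms TTGGCGC and TTCGCGC. All 9 members matched a window by symbol, with 10 windows in all, and 6 of the 10 held no match. Phgdh held TTGGCGC on the gene's strand, its first base at position -5 from the start, Shmt1 held the same letters on the opposite strand at position 25, and Psat1 held TTCGCGC on the opposite strand at position -172. Tyms held CACGTG at position -61, a motif that reads the same on both strands. Of 32851 promoter windows of this length, 7.15% held CACGTG, 3.97% TGATGNAA, 2.45% TTGGCGC and 1.59% TTCGCGC. A match is a description of these letters and no evidence of binding.

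Tumour and marrow differed in most of these enzymes, and in both directions. By limma's moderated test, 7 of the 9 enzymes had an adjusted p under 0.05 (Benjamini-Hochberg over all genes), 2 of them higher in tumours (Psat1 and Shmt1) and 5 lower (Phgdh, Shmt2, Mthfd1, Mthfd2 and Mthfd1l), while Psph and Tyms did not pass. That share has to be read against all genes, since 76.4% of them passed in this comparison, 34.2% higher in tumours and 42.2% lower. For 5 of the 9 no tumour overlapped any marrow sample, 2 of them with tumours higher and 3 with tumours lower, where 37.8% of all genes separated in this way, 20.9% with tumours higher and 16.9% with tumours lower. The median log2 difference, tumour minus marrow, was -0.52 over the 9 enzymes and -0.10 over all genes. Differences between tissues compare each tissue's mean over its deficient and wild type groups. Levels of different genes come from different probes and are not set against each other.

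Phgdh, the enzyme that commits the glycolytic intermediate to serine, showed the largest drop of the 9. Its level was 4.36 at the lowest, 6.14 at the median and 7.80 at the highest in deficient tumours, and 5.17, 6.50 and 8.24 in wild type tumours. In deficient marrow it was 10.51, 10.55 and 9.96, and in wild type marrow 10.57 and 10.30. All 24 tumours lay below all 5 marrow samples, and even the highest tumour stood more than 1 log2 unit under the lowest marrow sample. The log2 difference was -3.94 (SE 0.49), 15.3-fold lower in tumours, with an adjusted p of 2.51e-08 in limma.

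Psat1, the aminotransferase of the next step, went the other way. It ranged over 9.47, 10.18 and 10.38 (lowest, median, highest) in deficient tumours and 9.67, 10.13 and 10.34 in wild type tumours, against 8.04, 7.89 and 7.90 in deficient marrow and 7.85 and 8.12 in wild type marrow. Every tumour lay above every marrow sample, by a log2 difference of 2.12 (SE 0.11), 4.33-fold, with an adjusted p of 1.98e-16 in limma. Psph, the phosphatase that releases serine, ended the pathway with no called difference. It was 7.34, 7.63 and 8.05 in deficient tumours and 7.45, 7.54 and 8.09 in wild type tumours, against 7.58, 7.67 and 7.69 in deficient marrow and 7.82 and 7.56 in wild type marrow. The marrow values fell inside the tumour range, and the log2 difference of -0.0094 had a 95% confidence interval of -0.22 to 0.20.

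The hydroxymethyltransferases parted in the same manner. Shmt1, the cytosolic and nuclear enzyme, reached 8.68, 9.29 and 9.56 (lowest, median, highest) in deficient tumours and 8.73, 9.13 and 9.43 in wild type tumours, against 6.22, 6.37 and 6.14 in deficient marrow and 6.14 and 6.42 in wild type marrow. Every tumour was above every marrow sample, and the log2 difference of 2.92 (SE 0.12), 7.58-fold, had an adjusted p of 4.54e-19 in limma. Shmt2, the mitochondrial enzyme, was 7.44, 8.27 and 9.14 in deficient tumours and 7.43, 8.39 and 8.81 in wild type tumours, against 9.10, 8.24 and 8.40 in deficient marrow and 9.18 and 8.81 in wild type marrow. The tissues overlapped, with 11 of 24 tumours below all marrow samples, and the log2 difference of -0.52 (SE 0.21) passed with an adjusted p of 0.0235. That call rested on single marrow samples, since the adjusted p was 0.132 without wild type marrow 1 (log2 difference -0.43) and 0.102 without deficient marrow 1 (-0.39), and it was 0.108 with array weights (-0.46).

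**Figure D1:**
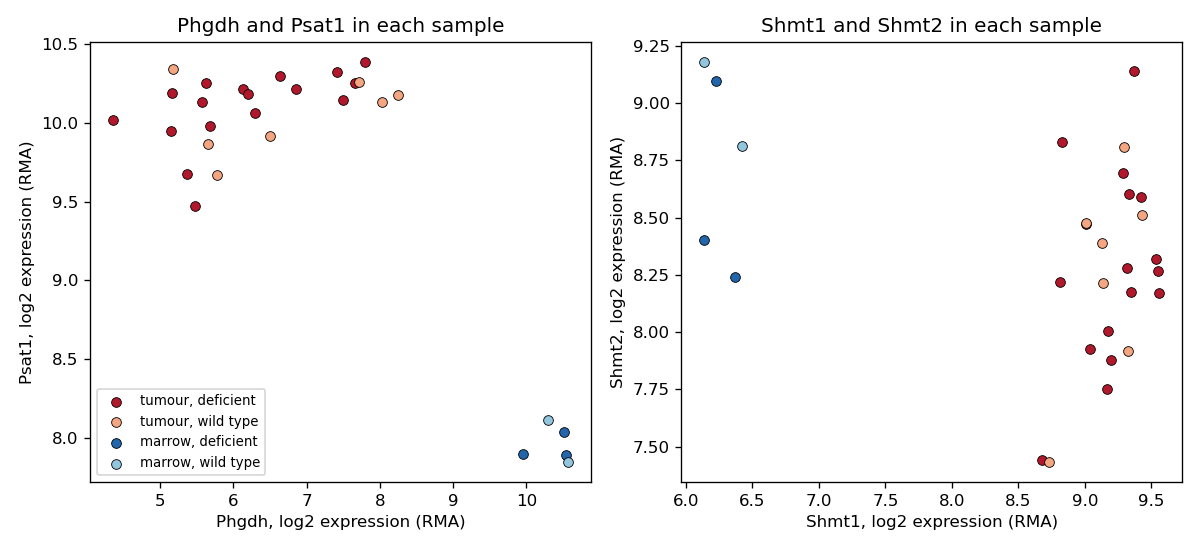
Log2 level of Psat1 against that of Phgdh, and of Shmt2 against that of Shmt1. Each point is a sample, coloured by tissue and caspase-8 genotype. Phgdh lay lower and Psat1 and Shmt1 higher in all 24 tumours than in all 5 marrow samples, while the tissues overlapped for Shmt2.

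The 3 enzymes that carry the folate-bound carbon between serine and formate were all lower in tumours, by less than 1 log2 unit. Mthfd1, which works on both the formyl and methylene forms of folate in the cytosol, was 8.64, 9.28 and 9.59 (lowest, median, highest) in deficient tumours and 8.55, 9.18 and 9.48 in wild type tumours, against 10.05, 9.83 and 9.65 in deficient marrow and 9.89 and 9.97 in wild type marrow. Every tumour was below every marrow sample, with a log2 difference of -0.72 (SE 0.14), 1.65-fold lower, and an adjusted p of 4.41e-05 in limma. Mthfd1l, the mitochondrial enzyme that releases formate, was 8.30, 8.83 and 9.10 in deficient tumours and 8.44, 8.82 and 8.97 in wild type tumours, against 9.60, 9.53 and 9.37 in deficient marrow and 9.77 and 9.63 in wild type marrow. It too separated the tissues without overlap, with a log2 difference of -0.86 (SE 0.12), 1.82-fold lower, and an adjusted p of 1.34e-07.

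Mthfd2, the mitochondrial dehydrogenase of the step before, is known for its high level in embryos and tumours. Here it was 8.25, 8.93 and 9.45 in deficient tumours and 8.41, 9.03 and 9.32 in wild type tumours, against 9.80, 8.81 and 9.10 in deficient marrow and 10.01 and 9.90 in wild type marrow. Only 7 of 24 tumours lay below all marrow samples, and deficient marrow reached into the tumour range. The log2 difference was -0.68 (SE 0.17), 1.60-fold lower, with an adjusted p of 0.000577, but among deficient samples alone it was -0.29 with an adjusted p of 0.185.

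Tyms was measured poorly by the probe sets that belong to it alone. The brightest of them was 4.95, 5.50 and 5.93 in deficient tumours and 5.29, 5.48 and 5.87 in wild type tumours, against 5.21, 5.35 and 5.58 in deficient marrow and 5.55 and 5.93 in wild type marrow. The tissues overlapped, and the log2 difference of -0.060 (SE 0.12) had an adjusted p of 0.651. The probe set that the annotation assigns to Tyms and the pseudogene Tyms-ps together was much brighter. It was 8.76, 9.49 and 9.88 in deficient tumours and 8.92, 9.43 and 9.59 in wild type tumours, against 10.40, 10.44 and 9.34 in deficient marrow and 10.62 and 9.83 in wild type marrow. Its log2 difference of -0.77 (SE 0.17) had an adjusted p of 0.000239 over all probe sets. Its correlation over the 24 tumours with the probe set used for Tyms was -0.30, so what is said here of Tyms alone describes a dim probe set.

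**Figure D2:**
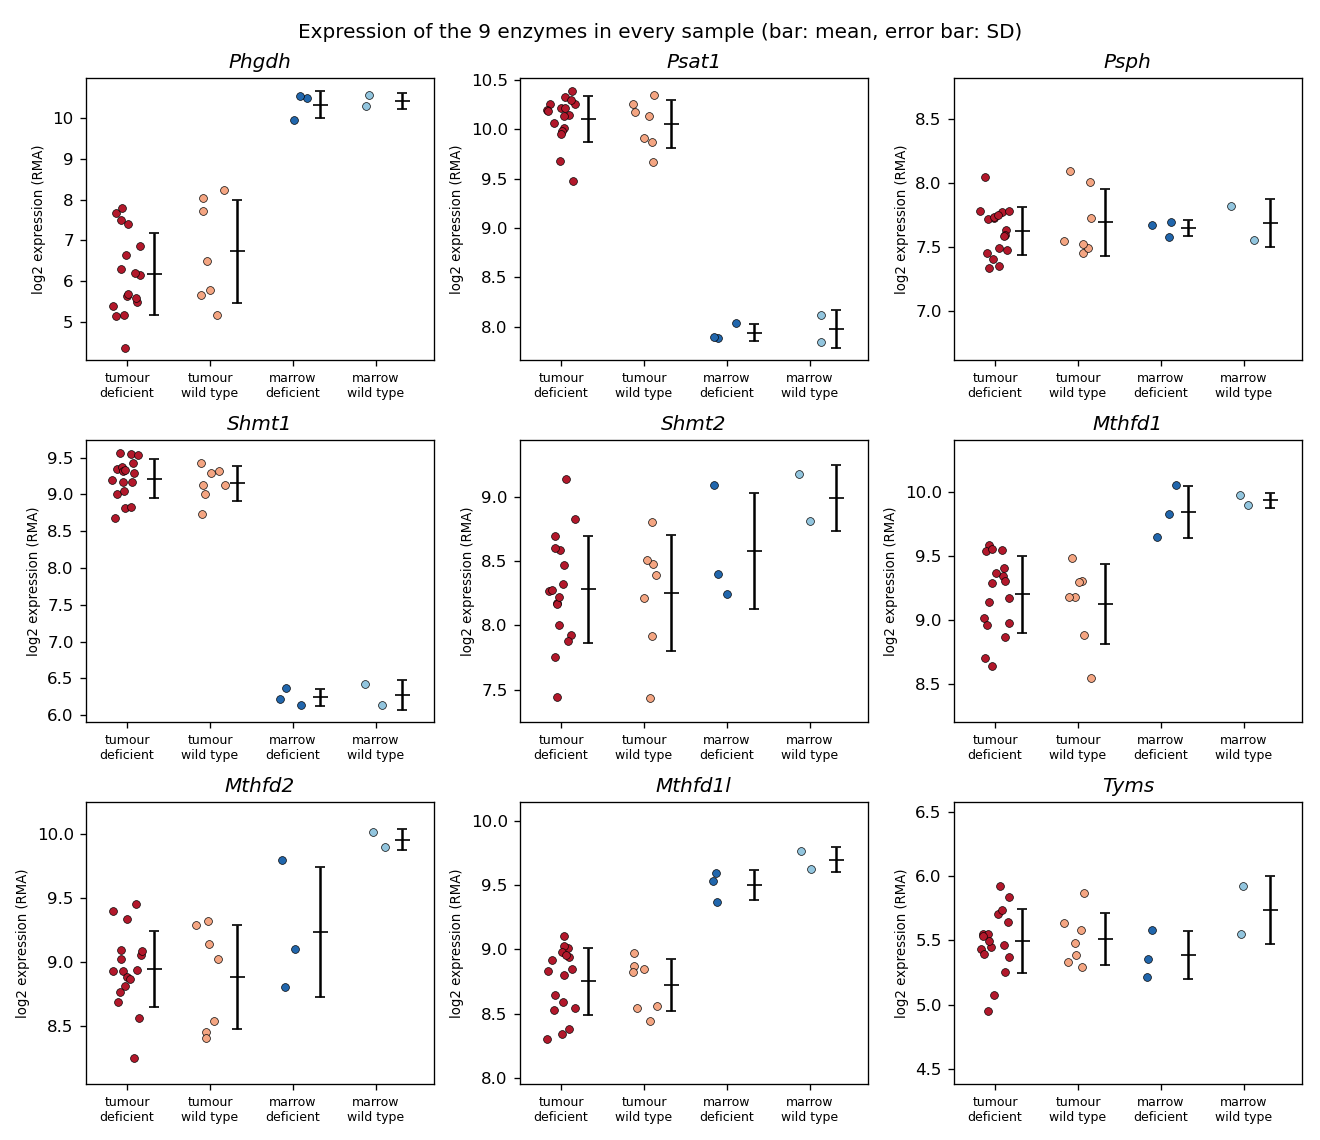
Log2 level of each of the 9 enzymes in every sample, in the order deficient tumours, wild type tumours, deficient marrow and wild type marrow, with bars at the group means. Phgdh, by the probe set used for it, is spread widely among tumours (4.36 to 8.24). The genotype groups overlap within the tumours for all 9 enzymes.

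Of 23 measured cell cycle genes, 5 were higher and 13 lower in tumours and 5 did not pass, a share close to the 76.4% of all genes, with a median log2 difference of -0.30 against -0.10 over all genes. The smallest p-values belonged to Cdc6 (-2.14), a replication licensing factor, Mki67 (-0.96), a proliferation marker, and the cyclins Ccnb2 (-0.92) and Ccne1 (-0.96). The part of the cell cycle genes, and of the lineage markers above, in the enzyme differences was not tested.

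The separate probe sets of a gene differed in size more than in direction. Over all probe sets 70.3% passed between the tissues. All 4 Phgdh probe sets belong to a class whose probes may match several transcripts, and all 4 were lower in tumours, by 1.50 to 3.94 on the log2 scale; the other 3 correlated with the probe set used at 0.86 to 0.98 over the 24 tumours. The 2 probe sets that Phgdh shares with a predicted locus in the annotation differed by -3.71 and -3.58 and passed as well, the second with a tumour mean of 3.68, below the array medians. The second Psat1 probe set was higher by 2.63. For Shmt1, 3 probe sets were higher by 2.29 to 2.92, but another differed by only 0.20 (adjusted p = 0.177 in limma) and correlated with the brightest one at 0.28. Besides the Shmt2 probe set used, others of that gene differed by -0.82 (adjusted p = 4.45e-05 in limma) and -0.34 (adjusted p = 0.0181). The dimmest of the Shmt2 probe sets differed by -0.069 and did not pass. The 3 probe sets of Mthfd1 and both of Mthfd2 were lower in tumours, and 3 of the 4 that belong to Tyms alone had means below the array medians in both tissues, so that no difference is read from them. Of these 3 dim probe sets, 1 passed all the same, at -0.25 (adjusted p = 0.00438 in limma).

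The study's central question concerns caspase-8. In tumours, none of the 9 enzymes was called as different with its loss. In limma 0 of 9 passed, beside 0% of all genes, and 0 of 9 had an unadjusted p under 0.05, beside 3.2% of all genes. The median log2 difference, deficient minus wild type, was 0.030 over the 9 and 0.0042 over all genes, with 6 higher and 3 lower in sign. For 8 of the 9 the 95% confidence interval left out a change of 1 log2 unit in either direction. Among these, Shmt1 differed by 0.064 (SE 0.11), Mthfd1 by 0.074 (SE 0.13), Psat1 by 0.052 (SE 0.10), Shmt2 by 0.030 (SE 0.18), Mthfd2 by 0.061 (SE 0.14) and Mthfd1l by 0.027 (SE 0.11), each with an adjusted p of 0.9997. Psph differed by -0.066 (SE 0.093) and Tyms by -0.018 (SE 0.10). The Shmt1 probe sets not used for the gene had the opposite sign. They differed by -0.22 (unadjusted p = 0.0438, adjusted p = 0.9995 in limma), -0.060 and -0.049. A measure of RNA quality, the excess of 3′ over 5′ signal of control transcripts, was 0.76 ± 0.18 in deficient tumours and 0.62 ± 0.15 in wild type tumours, and the mean of 8 endothelial markers was 5.99 ± 0.41 and 5.52 ± 0.45 in deficient and wild type tumours; their part in these differences was not tested.

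Phgdh, by the probe set used for it, was the exception in precision. It averaged 6.17 ± 1.01 in deficient tumours (SD, n = 17) and 6.73 ± 1.26 in wild type tumours (n = 7), a difference of -0.56 (SE 0.46) whose 95% confidence interval ran from -1.49 to 0.38. The genotype groups overlapped over nearly their whole ranges. All 4 Phgdh probe sets had a negative difference, between -0.56 and -0.22, and none passed. The 95% confidence intervals of those not used were -1.37 to 0.47, -0.53 to 0.10 and -0.50 to 0.07, so precision depended on the probe set. Within the title series the gene's difference was -0.39 in the lower and -0.68 in the higher.

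In marrow, with 3 deficient against 2 wild type samples, 0 of 9 passed in limma, beside 0.022% of all genes (4 genes). All 9 differences were negative in sign, with a median of -0.095 against -0.013 over all genes, and 1 of 9 had an unadjusted p under 0.05, beside 4.05% of all genes. That 1 was Mthfd2, whose values of 9.80, 8.81 and 9.10 in deficient marrow all lay below 10.01 and 9.90 in wild type marrow, a log2 difference of -0.72 (SE 0.29, unadjusted p = 0.0389 and adjusted p = 0.9996 in limma). Mthfd1l did not overlap either, at a difference of -0.20. Deficient marrow lay wholly below wild type marrow in these 2 of the 9 enzymes, beside 9% of all genes, and Shmt2 differed by -0.42 (SE 0.28) with overlap. Which enzymes stood out depended on the probe set. The second Mthfd2 probe set overlapped, at -0.62 (unadjusted p = 0.091 in limma). Another Shmt1 probe set differed by -0.70 and another of Phgdh by -0.39, both without overlap (unadjusted p = 0.0474 and 0.0483 in limma). The rest of those not used differed by 0.12 and 0.32 for Shmt1 and by -0.22 and -0.29 for Phgdh. Marrow genotype also went with sex-linked expression: Xist, the RNA of the inactive X chromosome, was 11.6 to 12.2 in deficient marrow and 5.11 to 6.20 in wild type marrow, so genotype and that difference cannot be told apart there. The tumour genotypes were each mixed in Xist but not evenly matched. Its median was 12.2 in deficient tumours (4.68 to 12.7) and 5.37 in wild type tumours (4.47 to 12.5).

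The test of whether the genotype difference itself differs between tissues called 0 of 9 enzymes, beside 0.319% of all genes, and 1 of 9 had an unadjusted p under 0.05, beside 7.83% of all genes. That 1 was Mthfd2, with an interaction of 0.78 (SE 0.33, unadjusted p = 0.0264, adjusted p = 0.545 in limma).

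**Figure D3:**
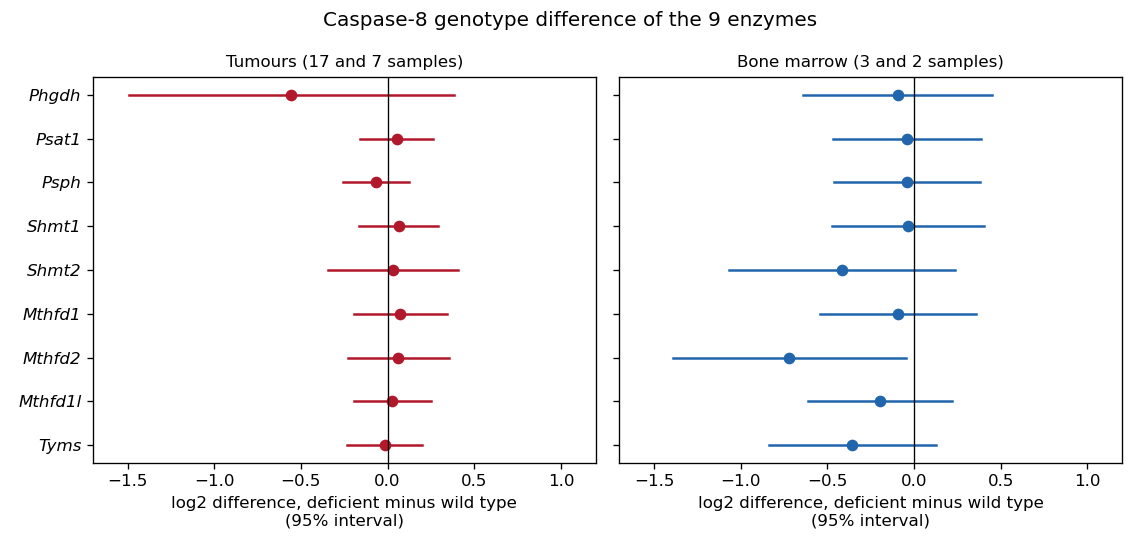
Log2 difference, deficient minus wild type, of the 9 enzymes in tumours and in marrow, with 95% confidence intervals from limma. The tumour intervals are narrow around 0 except that of the probe set used for Phgdh (-1.49 to 0.38). All 9 marrow estimates lie below 0 with none called.

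The tumours varied among themselves, most of all in Phgdh by the probe set used for it. The SD of that probe set over the 24 tumours was 1.09, above that of 99.4% of all genes, and its values ran between 4.36 and 8.24. The lower end of that range is below the array medians of 4.78 to 4.91, where signals are compressed, so the span is no exact fold. The other probe sets of Phgdh alone had SDs of 1.06, 0.36 and 0.33 over the tumours, so the size of the spread depended on the probe set. The median SD of all genes was 0.19. Shmt2 had an SD of 0.42 (89.8th percentile), Mthfd2 0.32 (82.7th) and Mthfd1 0.30 (79.2th), and Psph was the steadiest of the 9 (57.2th percentile).

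Within the tumours, several of the enzymes varied together. Of 36 pairs of members, 13 passed an adjusted p of 0.05 (permutation test with 100000 resamples, Benjamini-Hochberg over 54 relations), all of them positive, and 31 of 36 were positive in sign. By Spearman's rho 11 passed. The smallest r that passed was 0.52, and 2.19% of all pairs of the 18193 genes reached that value over these tumours. The enzymes were not each other's nearest genes: ranked among all genes by r, the closest other enzyme stood 6th for Mthfd2 (Shmt2), 7th for Shmt2 (Mthfd2), 60th for Shmt1 (Mthfd1), 51st for Mthfd1 (Shmt1), 934th for Tyms (Shmt2) and 21st to 70th for the other 4. The strongest pair was Shmt1 and Mthfd1, both of the cytosol, with r = 0.81 and rho = 0.88 over 24 tumours (permutation p = 1e-05 for both, the smallest that the resamples can give; adjusted p = 0.00027 for r). It was 0.81 without the 2 tumours farthest from the median of Shmt1. Within the title series r was 0.73 in the lower (n = 10) and 0.90 in the higher (n = 14). Mthfd1l, the mitochondrial source of formate, went with both, at r = 0.75 and rho = 0.71 with Shmt1 (permutation p = 5e-05 and 0.00019, adjusted p = 0.00054 for r) and at r = 0.72 and rho = 0.70 with Mthfd1 (permutation p = 0.00014 and 0.00026, adjusted p = 0.000945 for r).

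A second strong pair was mitochondrial. Shmt2 and Mthfd2, which act one after the other, correlated at r = 0.71 and rho = 0.73 (permutation p = 0.00012 and 0.0001, adjusted p = 0.000926 for r), with 0.62 without the 2 farthest tumours, 0.65 in the lower series and 0.82 in the higher series. Psat1 correlated with Mthfd1 at r = 0.74 and rho = 0.71 (permutation p = 4e-05 and 0.00013, adjusted p = 0.00054 for r), and with Mthfd2 at r = 0.71 and rho = 0.56 (permutation p = 6e-05 and 0.00514, adjusted p = 0.00054 for r). Without the 2 farthest tumours these were 0.58 and 0.53. Phgdh had fewer partners that passed, Psph (r = 0.57, rho = 0.44, permutation p = 0.00362 and 0.0341, adjusted p = 0.013 for r and 0.102 for rho) and Mthfd1l (r = 0.52, rho = 0.55, permutation p = 0.0102 and 0.0067, adjusted p = 0.0324 for r). The relation with Psph did not hold in the lower series, at 0.011 there and 0.79 in the higher series. None of the 54 relations passed in the lower series alone, with 10 tumours.

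The mean of 23 cell cycle genes correlated with 4 of the 9 past the threshold, at r = 0.59 or more, a value that 4.01% of all other genes reached. It correlated with Shmt1 at r = 0.83 and rho = 0.74 (permutation p = 1e-05, the smallest possible, and 8e-05; adjusted p = 0.00027 for r), with 0.80 without the 2 farthest tumours, 0.85 in the lower series and 0.83 in the higher series. Mthfd1 (r = 0.76), Mthfd1l (0.64) and Psat1 (0.59) passed as well, while Phgdh (0.26), Shmt2 (0.32) and Mthfd2 (0.28) did not. In the lower and higher series r was 0.71 and 0.80 for Mthfd1, 0.67 and 0.63 for Mthfd1l and 0.35 and 0.75 for Psat1. The bright probe set shared by Tyms and Tyms-ps correlated with the cell cycle mean at r = 0.82 and rho = 0.87 (permutation p = 2e-05 for r), as a relation added after the values were seen. Of the 9 relations with mouse Mycn, 0 passed. None of 126 relations of the enzymes with the cell type marker lists, the sympathoadrenal list included, passed. The strongest was Mthfd1 with the 5 chromaffin genes, at r = -0.60 with an adjusted permutation p of 0.231. Next came Shmt1 with the sympathoadrenal list, at r = -0.53 with an adjusted permutation p of 0.490.

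**Figure D4:**
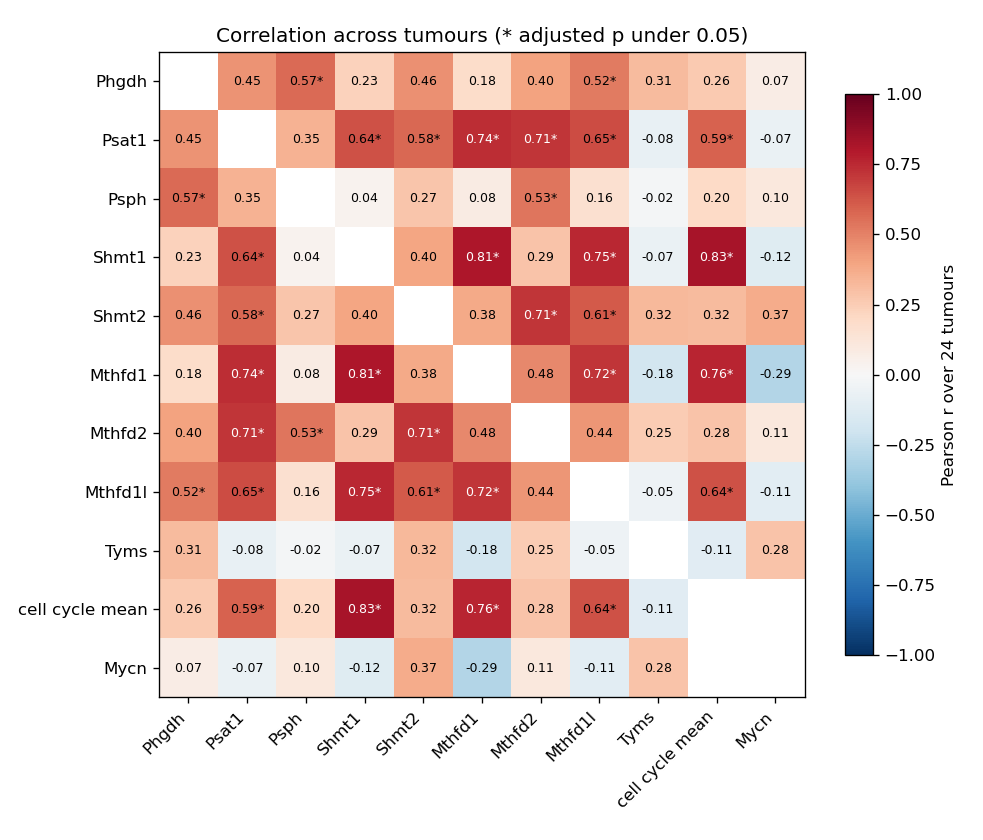
Pearson r over the 24 tumours for each pair of the 9 enzymes and for each enzyme with the mean of 23 cell cycle genes and with Mycn. The marked relations passed an adjusted permutation p of 0.05; the strongest pair of enzymes was Shmt1 with Mthfd1, at 0.81.

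The genes whose levels followed each enzyme most closely over the 24 tumours, of 16333 ranked by Pearson's r, were these. For Phgdh they were Mia (0.78), Eif4ebp1 (0.70), an inhibitor of cap-dependent translation, and Slc7a3 (0.70), a carrier of cationic amino acids. For Psat1 they were Asns (0.83), the asparagine synthetase, Eif2s2 (0.82) and Apip (0.82), an enzyme of methionine salvage. Mthfd2 had Gars (0.79), Tars (0.76) and Mars1 (0.72), which charge tRNAs with glycine, threonine and methionine, and Shmt2 also had Mars1 (0.78), followed by Lrrc20 and Fam136a. Shmt1 had Prep (0.92), Gspt1 (0.90), a translation termination factor, and Noa1 (0.89), and Mthfd1 had Ifrd2 (0.92), Tsfm (0.92), a mitochondrial elongation factor, and Nudcd1 (0.91). Mthfd1l had Rpf2, Ppa1 and again Tsfm (0.81), Psph had Sorcs2, Samd4 and Gch1 (0.80), and Tyms had Cep295 (0.74), Slitrk1 (0.69) and Nmnat3 (0.66). These ranks are a description of the same 24 samples.

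The rest of the pathway was read from 10 further lists, of which 94 of 103 genes were measured here. Between the tissues, 74 of the 94 passed, beside the 76.4% of all genes. By direction, 34.2% of all genes were higher in tumours and 42.2% lower. Folate enzymes outside the 9 split evenly, with 3 higher and 3 lower of 8 measured: Mthfd2l, a mitochondrial relative of Mthfd2, was higher by 3.16 on the log2 scale and Aldh1l2, which oxidises formyl-folate in mitochondria, by 3.43, Mtfmt, which formylates the initiator tRNA of mitochondria, was higher by 0.85, and Ggh, which trims folate polyglutamates, differed by -0.90. Of the folate carriers, 3 of 5 were higher and 2 lower, with Slc46a1 at 0.67, Slc19a1, the reduced folate carrier, at 0.54, Slc25a32, the mitochondrial carrier, at -0.49 and the receptor Folr1 at -0.96. All 4 measured genes of glycine cleavage and serine breakdown were higher in tumours, with a median of 1.21: Gldc, the decarboxylase of glycine cleavage, by 2.19, Gcsh, its carrier protein, by 1.55, Srr, the serine racemase, by 0.87 and Dld, a shared dehydrogenase, by 0.29.

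The next counts, too, stand beside 34.2% of all genes higher in tumours and 42.2% lower. Serine and glycine transporters were higher in 5 and lower in 3 of 9, including Slc38a1 (1.68), Slc38a2 (0.78) and the mitochondrial serine carrier Sfxn1 (0.55), and against them the glycine transporter Slc6a9 (-3.98). Purine synthesis, which consumes formyl-folate, was higher in 6 and lower in 1 of 10, with Atic at 0.70, Adsl at 0.54, Impdh1 at 0.40 and Adssl1 at -3.78. Of the methionine cycle genes, 4 were higher and 3 lower of 10, among them Ahcyl1 (1.40), Mtrr (0.91), Mat2b (-0.84) and the methionine synthase Mtr (-1.56). Thymidine supply had 2 higher and 4 lower of 8, with Dctd at 2.03, Dut at 0.996, Rrm2 at -0.72 and the thymidine kinase Tk1 at -2.09.

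The amino acid response genes leaned one way, with 1 higher and 9 lower of 13, beside 34.2% higher and 42.2% lower among all genes. Their median was -0.78, against -0.10 over all genes. The amino acid transporter subunits Slc7a5 (-1.69) and Slc3a2 (-1.04), and Ddit3 (-1.17) and Sesn2 (-0.92), which ATF4 is known to induce, were among those lower. Of the MYC family, Mycn was higher by 0.74 and Mycl by 1.59, Myc differed by -4.09, and Max differed by -0.62 without passing. In marrow the means of Aldh1l2 (3.94), Gldc (4.44), Slc46a1 (4.21) and Mycl (4.76) lay below the array medians, and so did that of Folr1 in tumours (3.93), so the sizes of their differences are not exact. The array reads mouse Mycn, and the human transgene was not analysed here. With caspase-8 genotype 0 of the 94 genes passed in limma in tumours or in marrow, and 6 had an unadjusted p under 0.05 in tumours, beside 3.2% of all genes, 0 in marrow, beside 4.05%, and 6 in the interaction, beside 7.83%. The smallest p-values in tumours belonged to Mtrr (-0.17) and Adsl (-0.22), and in marrow to Dctd (-0.50, unadjusted p = 0.051 in limma) and Folr1 (-0.58, unadjusted p = 0.0695 in limma).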

How the data were processed

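Total RNA was labelled through a two-cycle protocol and hybridised to Affymetrix arrays, 1 per sample. Per the submitters' processing notes, the authors used RMA and Partek 6.6, and the deposited values are log2 levels per probe set. No source used here says if the 29 arrays went through RMA as 1 set. Its quantile step takes out shifts that most genes share, and low signals are compressed. Precision is limited by the number of arrays, which carry no read depth.

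Of 45101 probe sets 64 were array controls, and of the others 34945 had 1 gene symbol in the platform annotation, 932 several and 9160 none listed; for 34741 the symbol was kept or updated through the Entrez ID. The brightest probe set stood for each of 18193 genes, with no filter on low values. Groups came from the tissue and genotype labels. Linear models (lmFit, then eBayes) of limma 3.58.1, run in R 4.3.3, gave two-sided p-values, adjusted by Benjamini-Hochberg over all genes and called under 0.05. They were fitted within tumours, within marrow, and over 4 groups for tissue and interaction. The fits were tested on simulated data. Figures were drawn with matplotlib 3.10.9.

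The members and lists were chosen with earlier results of these data known. The text names all 9 members and their probe sets, of each further list the 4 genes of smallest p between tissues, the 2 of smallest p for genotype, Mycn and Casp8, and the 3 nearest genes of each member. Predicted loci were passed over. The alternatives tried were the mean over probe sets or each probe set alone, a filter at a mean log2 level of 5, normalization, array weights, priors, covariates and samples; the shared Tyms probe set, the genotype by title series test and the marker list relations were added after the data were seen. Genes not measured here were not analysed.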

Additional observations from a re-analysis of the deposited data

How the results depend on the processing

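No paired analysis was possible because the labels used here do not say which samples, if any, came from the same animal. In tumours by genotype, 0 members were called under every alternative run; of 99 values 89 kept their direction and side of the threshold and 10 changed sign, none of them called. These were Shmt1 (-0.067), Shmt2 (-0.025) and Tyms (0.043) with the mean of probe sets, Shmt2 (-0.079) with array weights, Psph (0.0998), Shmt2 (-0.0896), Mthfd1 (-0.0528), Mthfd1l (-0.0532) and Tyms (0.00999) in the lower title series, and Mthfd2 (-0.122) in the higher. Leaving out each tumour in turn gave -0.012 to 0.10 for Psat1, -0.11 to 0.00035 for Psph, -0.0066 to 0.11 for Shmt1, -0.11 to 0.12 for Shmt2, -0.022 to 0.13 for Mthfd1, -0.018 to 0.13 for Mthfd2, -0.020 to 0.068 for Mthfd1l and -0.054 to 0.042 for Tyms. In marrow, array weights turned Phgdh to 0.0085 and Shmt1 to 0.00034, and leaving out each sample gave -0.23 to 0.095 for Phgdh, -0.17 to 0.096 for Psat1, -0.17 to 0.091 for Psph, -0.18 to 0.11 for Shmt1 and -0.20 to 0.0063 for Mthfd1, with 0 called. Between tissues the members called ranged from 5 to 8. Shmt2 also lost its call in deficient samples alone (-0.30, adjusted p = 0.286) and in wild type samples alone (-0.75, adjusted p = 0.0573), with fewer samples in each. Tyms passed with the mean of probe sets (-0.18, adjusted p = 0.0151) and with quantile normalization again (-0.26, adjusted p = 0.0384), and was 0.11 in deficient samples alone. That mean takes in the dim Tyms probe sets from which no difference is read. Psph was 0.0035 in wild type samples alone and 0.018 in the higher series. Leaving out each sample gave -0.075 to 0.056 for Psph and -0.15 to 0.034 for Tyms. Of the correlated pairs 0 remained in the lower series, where 10 tumours limit the test, and the count was at most 22 under the other alternatives. The causes of these changes were not tested, and 5 marrow samples limit every comparison with marrow.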
